A study of Mus musculus with 36 samples.

Results

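The 78 genes described here are the protein-coding genes whose GENCODE M21 symbol starts with Mrpl (49 genes) or Mrps (29 genes), chosen by name alone among the 55536 genes listed in each library. All but Mrps36 encode protein subunits of the mitochondrial ribosome. They lie on 17 chromosomes, and 5 processed pseudogenes with the same prefixes were left out. They were measured in 36 RNA sequencing libraries. The cells were brown pre-adipocytes of the Rxra-/- clones 48 and 66, in which Cas9 had disrupted Rxra and a retrovirus supplied wild-type RXRα (RxraWT) or RXRα with alanine in place of serine 22 (RxraSA). All cells, RxraWT included, therefore carried the knockout and a viral Rxra cDNA. RNA was taken at confluence (day 0), after 2 days of adipogenic induction with dexamethasone, isobutylmethylxanthine and indomethacin (day 2), and at day 6, when insulin and triiodothyronine, which were present throughout, had been given without the inducers. Each clone, genotype and day had 3 libraries, giving 6 per genotype and day and 12 per day. All libraries of clone 48 formed pool 1 and all those of clone 66 pool 2, so clone and pool cannot be told apart.

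The mitochondrial ribosome translates the few messenger RNAs encoded by mitochondrial DNA, all of which specify subunits of the respiratory chain and the ATP synthase. Its ribosomal RNAs are transcribed in the mitochondrion, whereas its proteins are encoded in the nucleus, made in the cytosol and imported. Brown adipocytes are known for their dense mitochondria, which oxidise fatty acids to produce heat. The symbols do not strictly follow the 2 subunits. By the assignment used here, 51 of the genes encode proteins of the large subunit, including Mrps18a and Mrps30 in spite of their names, and 26 encode proteins of the small subunit. The product of Mrps36 is associated with the 2-oxoglutarate dehydrogenase complex and is counted apart. Bacterial counterparts are assigned to 29 large and 16 small subunit proteins.

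Total counts per library lay between 11351078 and 24349263. The genes Adipoq, Fabp4 and Pparg, which mark adipocytes, were called higher at day 2 and at day 6 than at day 0, and all 5 adipocyte markers examined were. Of 5 brown adipocyte markers, Cidea, Ppargc1a and Elovl3 were called higher on both days, with a summed level of all 5 of 13.6 CPM at day 0 and 26.3 CPM at day 2 (medians), most of it from Ppargc1a. Ucp1 and Dio2 had at most 5 and 20 counts in any library and failed the filter on low counts, as did 4 of 5 immune, 3 of 5 endothelial and 4 of 5 muscle markers. In the library of clone 48, RxraSA, day 0, replicate 1, the mitochondrial leucyl-tRNA synthetase gene Lars2 took 3.06% of all counts and annotated nuclear ribosomal RNA 1.21%, and this library had the lowest total. Results between days include this library, and without it no count of called members between days moved by more than 1.5 times. Levels are given in CPM, counts per 1000000 of a library total scaled by the trimmed mean of M values (TMM). Together with the 78 genes, the summed level of 5 markers of dividing cells moved between days, from a median of 2988 CPM at day 0 to 2046 CPM at day 2, and that of the pre-adipocyte markers moved from 350 to 67.5 CPM. Their part in the results was not tested.

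Promoters from RefSeq (GRCm38.p6, 250 bases before to 50 bases after the annotated start) were found for 69 of the 78 genes, 75 promoters in all. They were searched on both strands for the letters of 5 motifs, of which 3 belong to factors that are known at such promoters, NRF1 (GCGCA and GCGC around any 1 base), the ETS family, which includes GABP (CCGGAAG), and YY1 (AAGATGGC). The NRF1 letters were found in 17.3% of the members' promoters, against 4.60% of all 32851 promoters and 9.38% of the 13656 promoters of tested genes. For the ETS letters the shares were 34.7%, 8.86% and 16.8%, and for the YY1 letters 16.0%, 2.75% and 4.22%. For the other motifs the shares were 52.0%, 35.7% and 60.05% for the SP letters GGGCGG and 6.67%, 13.6% and 7.48% for the TATA letters TATAAA. A match describes the sequence and does not show binding. The promoters of Mrpl12, Mrps22 and Mrps18a, 3 of the 5 genes with the largest increases between days 0 and 2, are printed 5′ to 3′. That of Mrps21, which was not called between any 2 days, is printed as well. Matches to the NRF1, ETS and YY1 letters are in capitals. The promoters of Mrps2 and Mrpl20, the other 2 of these 5 genes, held no such match and are not printed.

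Mrpl12 (chr11:120484387-120484686, plus strand): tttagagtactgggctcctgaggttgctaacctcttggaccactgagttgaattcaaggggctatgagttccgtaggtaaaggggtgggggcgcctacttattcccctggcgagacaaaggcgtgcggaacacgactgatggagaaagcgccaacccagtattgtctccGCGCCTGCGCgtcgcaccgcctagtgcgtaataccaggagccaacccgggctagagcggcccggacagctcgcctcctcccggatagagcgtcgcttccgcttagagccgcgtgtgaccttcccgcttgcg
Mrps22 (chr9:98601630-98601929, minus strand): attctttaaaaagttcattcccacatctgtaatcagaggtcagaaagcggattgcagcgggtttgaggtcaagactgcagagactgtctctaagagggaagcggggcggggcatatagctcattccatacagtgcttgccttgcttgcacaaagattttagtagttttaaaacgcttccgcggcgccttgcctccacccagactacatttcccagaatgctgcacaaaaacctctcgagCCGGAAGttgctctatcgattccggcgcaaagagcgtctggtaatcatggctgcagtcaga
Mrps18a (chr17:46110754-46111053, plus strand): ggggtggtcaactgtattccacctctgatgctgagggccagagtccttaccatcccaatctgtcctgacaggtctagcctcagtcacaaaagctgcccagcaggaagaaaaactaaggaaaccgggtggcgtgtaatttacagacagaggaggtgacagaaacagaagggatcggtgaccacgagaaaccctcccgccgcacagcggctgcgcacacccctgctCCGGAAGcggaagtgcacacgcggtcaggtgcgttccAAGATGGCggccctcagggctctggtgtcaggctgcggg
Mrps21 (chr3:95871465-95871764, minus strand): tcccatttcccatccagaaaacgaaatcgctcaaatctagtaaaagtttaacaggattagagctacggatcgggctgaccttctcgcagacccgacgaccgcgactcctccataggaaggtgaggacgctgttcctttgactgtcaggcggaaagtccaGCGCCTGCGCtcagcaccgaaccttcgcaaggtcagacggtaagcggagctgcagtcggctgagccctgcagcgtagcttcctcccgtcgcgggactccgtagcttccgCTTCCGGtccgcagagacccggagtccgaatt

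Mrpl12 and Mrps21 both carried a match to the NRF1 letters, and the first gene had the largest increase and the second was not called. The median log2 fold change between days 0 and 2 was 0.95 for the 13 genes with these letters and 0.89 for the matched genes without them. With the ETS letters it was 0.82 (26 genes, of which Mrpl53 failed the filter on low counts and gave no value), and without them 0.94. With and without the YY1 letters it was 1.08 (12 genes) and 0.88. These medians are given as descriptions.

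At day 0 the genes took a small share of all counts, and this share was highest at day 2. The share was 0.366% in the lowest, 0.399% in the median and 0.474% in the highest of the 12 libraries at day 0. At day 2 the corresponding values were 0.571%, 0.656% and 0.779%, and at day 6 they were 0.426%, 0.512% and 0.640%. Every library of day 2 lay above every library of day 0, whereas day 6 overlapped with both. In these bulk samples a smaller number of cells expressing a gene and less RNA per cell cannot be told apart. The share of counts on mitochondrially encoded genes also differed between days. It ran from 1.11 to 3.78% at day 0, 1.25 to 4.86% at day 2 and 1.96 to 9.09% at day 6. With the mitochondrial genes left out, 73 of the 77 members tested were called higher and 0 lower at day 2 than at day 0. With them the counts were 72 and 0, against 35.8% and 37.5% of all tested genes. The part of the mitochondrial share in the differences was not tested.

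**Figure D1:**
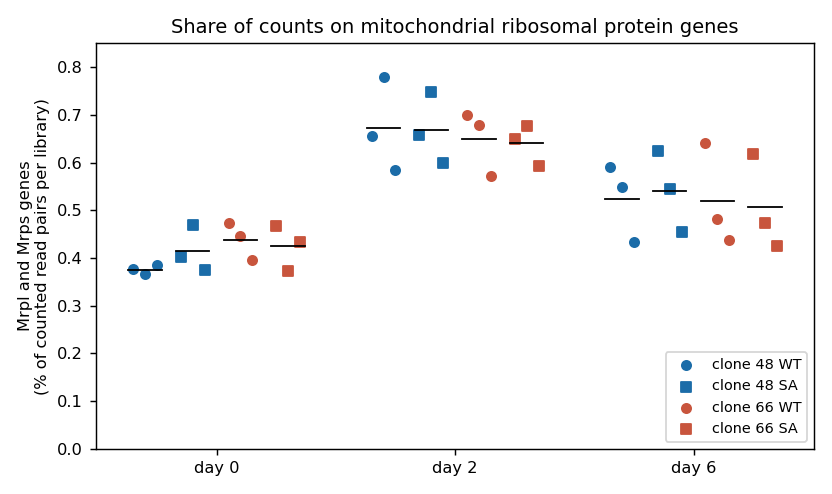
Share of counted read pairs assigned to the 78 Mrpl and Mrps genes (y axis, % per library) by day (x axis), with 1 point per library, circles for RxraWT, squares for RxraSA, colours for the clones and lines for the mean of 3 libraries. The 12 libraries of day 2 sit between 0.571% and 0.779%, all above the 12 libraries of day 0.

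To describe how the genes changed during differentiation, the days were compared over both genotypes and clones (edgeR's quasi-likelihood test, Benjamini-Hochberg adjusted p-value under 0.05). Of the 78 genes, 77 passed the filter on low counts, among 16723 genes tested. Only Mrpl53 (GRCm38 chr6:83109040-83109939), which has 88.0% of its exon bases in common with the overlapping genes Ccdc142os and Gm42688, failed, with 0 to 9 counts per library. Between days 0 and 2, 72 of 77 were called higher and 0 lower, whereas 35.8% of all tested genes were called higher and 37.5% lower. The median log2 fold change was 0.93 for the 77 genes and -0.02 for all tested genes. DESeq2 also called 72 higher and 0 lower. With the counts of same-numbered RxraWT and RxraSA libraries summed, edgeR called 70 genes, all of them among its 72. When libraries were scaled by library size alone, the median over all tested genes moved to -0.27 and that of the 77 genes to 0.66, with 71 of 77 above 0. In 48 of the 77 genes every library of day 2 lay above every library of day 0, a pattern found in 13.6% of all tested genes. When libraries of the same clone, genotype and replicate number were set side by side, day 2 was above day 0 in all 12 for 65 genes, and this held for 24.6% of all tested genes.

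The increase was seen in both subunits. In the large subunit 47 of 50 tested genes were called higher, with a median log2 fold change of 0.93. In the small subunit 24 of 26 were called higher, with a median of 0.93 as well. Genes with a bacterial counterpart (42 of 45 higher, median 0.89) and genes specific to mitochondria, here with Mrps36 (30 of 32 higher, median 0.94), lay close together. Among the 45 genes whose exons share no base with another gene, 41 were called higher, with a median of 0.90.

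**Figure D2:**
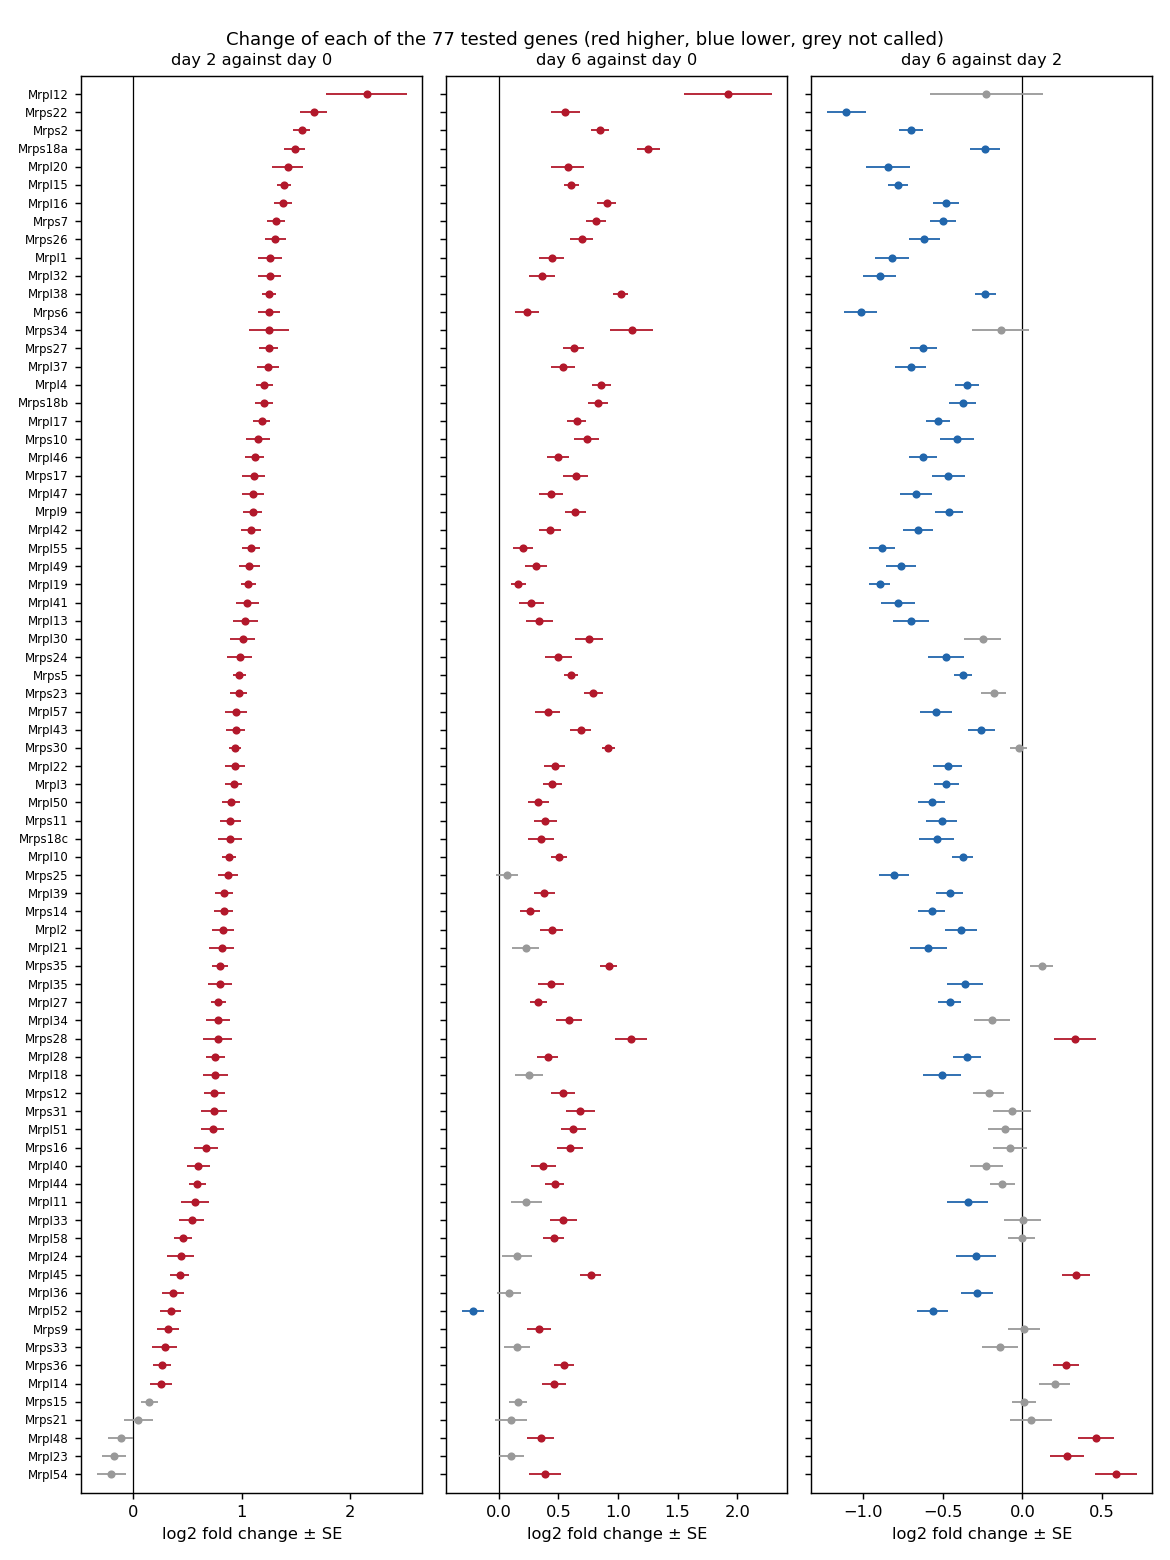
Log2 fold change with its standard error (x axis) of each of the 77 tested genes (y axis, in the order of day 2 against day 0) for the 3 pairs of days, with red for genes called higher, blue for genes called lower and grey for genes not called. At day 2, 72 genes are red, and Mrpl12 lies farthest to the right with a log2 fold change of 2.15.

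Mrpl12, which encodes the mitochondrial counterpart of bacterial L7/L12, had the largest increase and the largest standard error. Its level, in CPM, was 6.32 in the lowest, 19.8 in the median and 53.4 in the highest library at day 0, while the corresponding values were 40.5, 99.6 and 181 at day 2 and then 25.5, 90.1 and 154 at day 6. The ranges of days 0 and 2 overlapped. The level differed by replicate number, that of replicate 1 being the lowest of the 3 in all 12 groups of clone, genotype and day. In clone 48 with RxraWT the 3 libraries of day 0 had 13.7, 17.9 and 29.7 CPM, and those of day 2 had 40.5, 72.4 and 159 CPM, in the order of replicates 1, 2 and 3. Within the same clone, genotype and replicate number day 2 was above day 0 in 12 of 12 cases. The log2 fold change was 2.15 ± 0.37 (SE, adjusted p = 4.03e-06) at day 2 and 1.92 ± 0.37 (adjusted p = 2.40e-05) at day 6, and the difference between days 6 and 2 was not called (-0.23 ± 0.35).

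Mrps22, a small subunit protein with no bacterial counterpart, rose and then fell. Its levels were 28.8 CPM in the lowest, 36.1 in the median and 47.0 in the highest library at day 0, while the corresponding values were 86.9, 123 and 163 at day 2 and then 37.7, 55.9 and 84.3 at day 6. Day 2 did not overlap with day 0, and its range nearly touched but did not overlap that of day 6. The log2 fold change was 1.66 ± 0.12 (adjusted p = 4.27e-14) from day 0 to day 2 and -1.11 ± 0.12 (adjusted p = 1.22e-09) from day 2 to day 6, the largest decrease among the 77 genes.

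Mrps18a kept most of its increase at day 6. It had 29.6, 40.8 and 49.8 CPM (lowest, median and highest library) at day 0, while the corresponding values were 82.8, 113 and 151 at day 2 and then 85.9, 98.2 and 106 at day 6. Both later days lay wholly above day 0, with log2 fold changes of 1.49 ± 0.10 (adjusted p = 7.56e-16) and 1.25 ± 0.10 (adjusted p = 6.99e-14). The decrease from day 2 to day 6 (-0.23 ± 0.09) was called but was lost in 10 of the 21 other settings tried. The other Mrps18 paralogs, whose products occupy different sites of the ribosome, also rose by day 2. The log2 fold change was 1.21 ± 0.08 for Mrps18b and 0.89 ± 0.11 for Mrps18c, which share 30.5% and 23.2% of their exon bases with neighbouring genes. Per kb of exon, the mean level at day 0 was 34.8 CPM for Mrps18c and 12.1 for Mrps18b, with Mrps18a below both, and at day 2 it was 64.6 for Mrps18c, 27.8 for Mrps18b and 31.1 for Mrps18a.

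Further genes with large increases at day 2 were Mrps2 (log2 fold change 1.55 ± 0.08) and Mrpl20 (1.42 ± 0.14). The level of Mrps2 ranged from 34.4 to 50.2 CPM at day 0 and from 89.8 to 152 CPM at day 2, and the ranges for Mrpl20 were 45.0 to 81.9 and 124 to 259 CPM, so that neither gene overlapped between these days. At the other end of the called genes, Mrpl14, Mrps36, Mrps33, Mrps9 and Mrpl52 rose by 0.26 to 0.35 on the log2 scale, and their ranges of day 0 and day 2 overlapped. Of the 21 other settings, the call was lost in 8 for Mrps33, 6 for Mrpl14, 4 for Mrps36, 3 for Mrps9 and 2 for Mrpl52. For Mrpl14 the direction depended on the scaling, since its log2 fold change was -0.0021 with library size alone. Mrps12, the counterpart of the bacterial decoding site protein S12, rose by 0.75 ± 0.10, Mrps30 by 0.94 ± 0.05 and Mrpl58, a peptidyl-tRNA hydrolase built into the large subunit, by 0.46 ± 0.09.

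A total of 5 genes were not called between days 0 and 2. Mrpl54 had 63.0, 92.5 and 109 CPM (lowest, median and highest library) at day 0, while the corresponding values were 59.4, 71.3 and 110 at day 2 and then 68.9, 120 and 188 at day 6. The days overlapped throughout, the log2 fold change at day 2 was -0.20 ± 0.13 (adjusted p = 0.174), and the increase from day 2 to day 6 (0.59 ± 0.13, adjusted p = 0.000250) was the largest of that pair of days. Mrpl48 and Mrpl23 were likewise not called at day 2 (-0.11 ± 0.11 and -0.18 ± 0.11) and rose from day 2 to day 6 (0.46 ± 0.11 and 0.28 ± 0.11). With library size alone, these 3 genes were called lower at day 2. Mrps21 had medians of 70.1, 71.8 and 71.4 CPM at days 0, 2 and 6, with a widest range of 48.3 to 129 CPM, and together with Mrps15 it was not called for any pair of days.

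**Figure D3:**
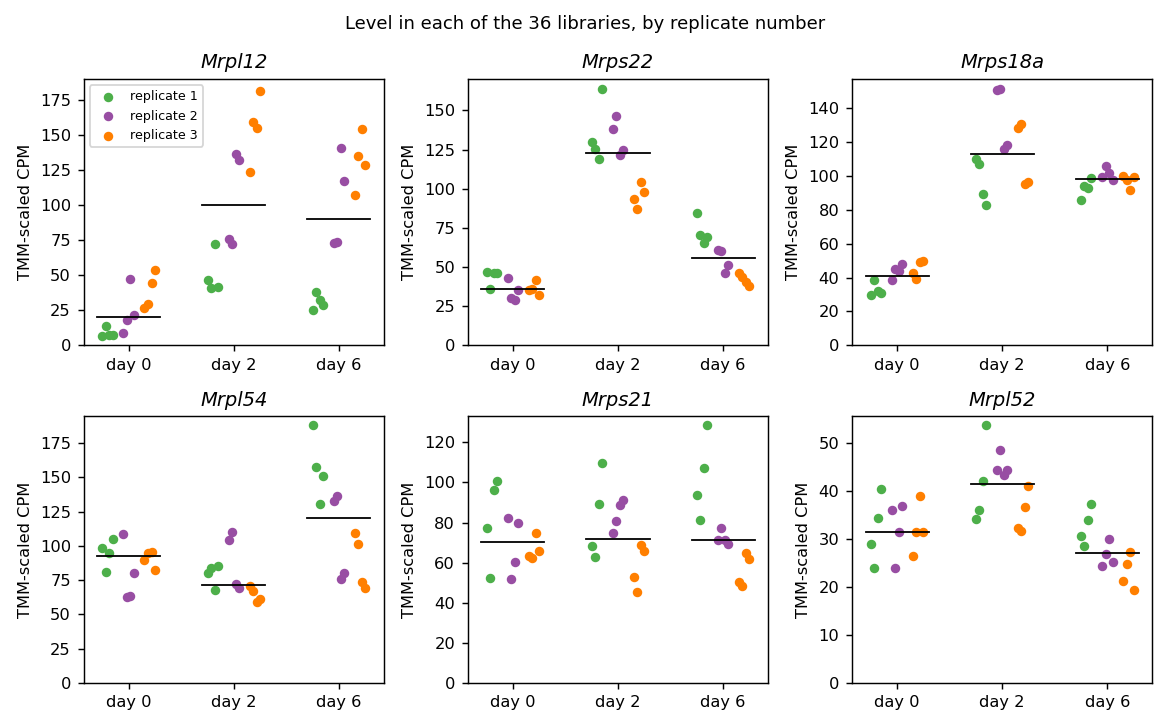
Level in TMM-scaled CPM (y axis, from 0) of 6 genes in each of the 36 libraries by day (x axis), coloured by replicate number, with lines at the median of 12 libraries. Mrps22 rises at day 2 and falls by day 6, Mrps18a stays high, Mrpl54 is highest at day 6, Mrps21 keeps similar medians, and the Mrpl12 points of replicate 1 lie lowest.

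At day 6 most of the genes were still above day 0 but below day 2. Against day 0, 66 of 77 were called higher and 1 lower, whereas 32.9% of all tested genes were called higher and 35.4% lower. The median log2 fold change was 0.47, against -0.03 for all tested genes. The libraries of day 6 lay wholly above those of day 0 for 12 genes, a pattern seen in 12.2% of all tested genes. After Mrpl12 and Mrps18a, the largest increases were those of Mrps34 (1.11 ± 0.18), Mrps28 (1.11 ± 0.13) and Mrpl38 (1.02 ± 0.06). Mrps34 shares 77.8% of its exon bases with Mapk8ip3 and Nme3 and had 29 to 324 counts per library, so its values are uncertain. The smallest called increases were those of Mrpl19, Mrpl55, Mrps6 and Mrps14 (0.16 to 0.26), and that of Mrpl19 was -0.02 with library size alone. Of the 21 other settings, the call was lost in 12 for Mrps6, 7 for Mrpl55, 6 for Mrpl19 and 4 for Mrps14. The gene called lower was Mrpl52 (-0.22 ± 0.10, adjusted p = 0.0439), with medians of 31.5 CPM at day 0 and 27.1 CPM at day 6 and overlapping ranges. This call was lost in 13 of the 21 other settings, with log2 fold changes of -0.21 and -0.18 without replicates 2 and 3 of clone 48 and of -0.18 and -0.15 without replicates 2 and 3 of clone 66.

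From day 2 to day 6, 51 genes were called lower and 6 higher, against 30.1% and 31.9% of all tested genes. The median log2 fold change was -0.39, compared with 0.01 for all tested genes. After Mrps22, the largest decreases were those of Mrps6 (-1.02 ± 0.10), Mrpl32 (-0.90 ± 0.11), Mrpl19 (-0.90 ± 0.07) and Mrpl55 (-0.88 ± 0.08). For Mrps6 the levels were 201, 237 and 286 CPM (lowest, median and highest library) at day 2 and 83.3, 119 and 168 at day 6, without overlap. The genes that rose were Mrpl54, Mrpl48, Mrpl45 (0.34 ± 0.09), Mrps28 (0.33 ± 0.13), Mrpl23 and Mrps36 (0.28 ± 0.08), and for each of them the ranges of the 2 days overlapped. The calls of Mrps28, Mrpl23 and Mrps36 rested on certain libraries. Without replicate 1 of clone 66 the values were 0.20 for Mrps28 and 0.18 for Mrpl23, without replicate 1 of clone 48 they were 0.31 for Mrps28 and 0.19 for Mrps36, and without replicate 3 of clone 66 the value for Mrpl23 was 0.25, none of which was called. Taking both steps, 51 genes were called higher by day 2 and lower afterwards, and 44 of these were still called higher at day 6 than at day 0. Another 17 were called higher at day 2 and at day 6 with no call between these days. The share of all tested genes with these patterns was not computed, and both steps use the same day 2 libraries.

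Other genes also differed by replicate number within clone, genotype and day. The difference between replicates 3 and 1 in log2 CPM (with 0.5 added), averaged over the 12 groups, was 1.94 for Mrpl12, and at the other end it was -0.54 for Mrps31, -0.53 for Mrps21, -0.53 for Mrpl11 and -0.51 for Mrps22. Replicate 3 was below replicate 1 in all 12 groups for 9 of the 77 genes and above it for 6, against 6.08% and 10.4% of all tested genes. The median of this difference was -0.26 for the 77 genes and -0.03 for all tested genes. Mrps31 and Mrpl11 were chosen after their values were seen.

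At day 0 the level per kb of exon ranged over the tested genes from 1.45 CPM for Mrpl23, 2.47 for Mrps34 and 3.06 for Mrpl48 to 88.6 for Mrpl18, 97.7 for Mrps21 and 107 for Mrpl54. The annotated exons of Mrpl23 and Mrpl48 span 4883 and 8152 bases, and processed pseudogenes carry both names. Read pairs that mapped to several places were not counted. The part of exon length and of pseudogenes in these levels was not tested. Across the 77 genes Spearman's rho between the day 0 level and the log2 fold change at day 2 was -0.03, given as a description over genes that share the same libraries.

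Genes with other roles in mitochondrial translation were compared in the same fit, in which 35.8% of all tested genes were called higher and 37.5% lower at day 2. Of 14 translation factors, all were called higher at day 2 (median log2 fold change 0.70), led by Gfm2, which acts in ribosome recycling (1.52 ± 0.06), and Taco1, a translational activator (1.42 ± 0.10). Of 25 genes for mitoribosome assembly and rRNA maturation, 21 were called higher and 2 lower, with the largest increases for the GTPase Mtg1 (1.57 ± 0.12) and the rRNA methyltransferase Mrm3 (1.51 ± 0.08) and decreases for Mettl17 (-0.50 ± 0.09) and Rpusd4 (-0.26 ± 0.11). Of 17 mitochondrial tRNA synthetases, 14 were called higher and 2 lower, led by Nars2 (1.92 ± 0.10) and Ears2 (1.87 ± 0.10), and the lower genes were Sars2 (-0.22 ± 0.09) and Lars2 (-3.38 ± 1.17). The call of Lars2 was lost without the library in which it took 3.06% of the counts. The value was then -0.99 ± 1.13 for Lars2 (edgeR, adjusted p = 0.434), and 14 synthetases were called higher and 1 lower. The median level of Lars2 was 25.8 CPM at day 0 and 54.6 CPM at day 2, and day 2 was above day 0 in 8 of 12 matched libraries. The 5 mitoribosomal proteins with other symbols gave 4 higher, from 0.25 for Aurkaip1 to 1.52 for Ptcd3, and Gadd45gip1 was not called (0.04 ± 0.10).

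At day 6, 12 of the 14 factors, 16 of the 25 assembly genes (3 lower), 14 of the 17 synthetases and all 5 further subunits were called higher than at day 0. The shares of all tested genes were 32.9% higher and 35.4% lower. Of 13 mitochondrially encoded messenger RNAs, 8 passed the filter, and all 8 were called higher on both days, with medians of 0.94 at day 2 and 1.24 at day 6. Between days 2 and 6, 4 of these 8 were called higher and 0 lower by edgeR, and 4 had an unadjusted p-value under 0.05, whereas 51 of the 77 nuclear genes were called lower. The mitochondrial rRNAs mt-Rnr1 and mt-Rnr2, which the library preparation was designed to remove, were not called at day 2. Cytosolic ribosomal proteins gave 64 of 83 higher and 1 lower at day 2 (median 0.41), and 14 higher and 8 lower at day 6 (median 0.01).

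**Figure D4:**
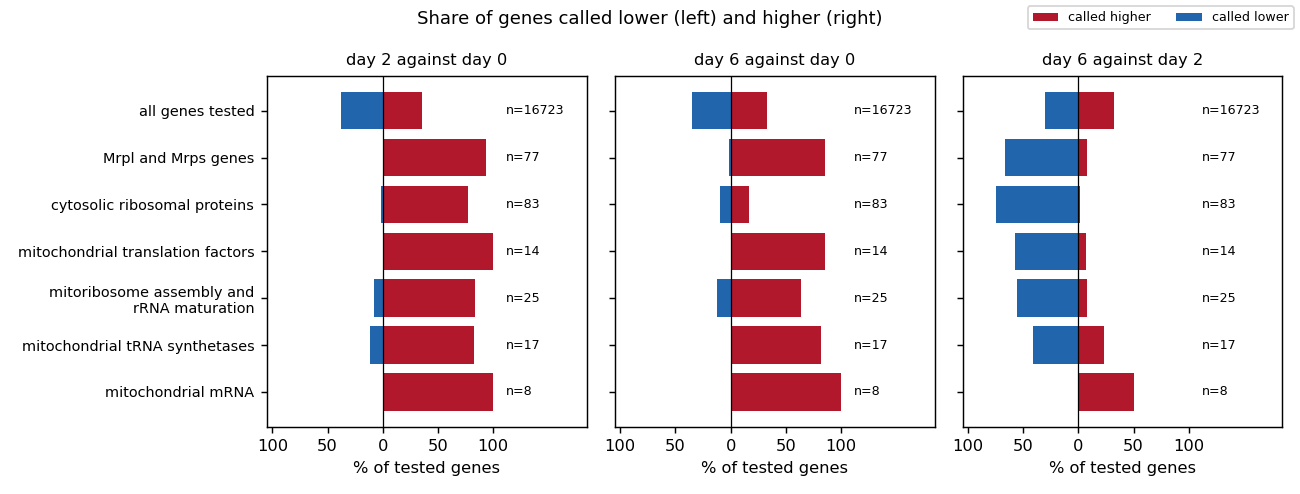
Share of tested genes called higher (red, to the right) and lower (blue, to the left) for all genes, the Mrpl and Mrps genes and 5 other lists (y axis, with n tested), for the 3 pairs of days (x axis, %). Of the Mrpl and Mrps genes, 72 of 77 were called higher at day 2 and 66 of 77 at day 6, compared with 64 and 14 of 83 cytosolic ribosomal protein genes.

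Among 11 regulators of mitochondrial biogenesis, 8 were called higher and 1 lower at day 2, against 35.8% and 37.5% of all tested genes. The coactivator gene Ppargc1b had the largest change (log2 fold change 3.40 ± 0.26), from 0.891 to 4.74 CPM at day 0 to 13.3 to 34.8 CPM at day 2, without overlap, followed by Myc (2.13 ± 0.26). Yy1 was called lower (-0.32 ± 0.06), whereas Gabpa, which encodes the DNA-binding subunit of GABP, was not called (-0.11 ± 0.08).

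The genotypes were compared to ask whether loss of the phosphorylation site at serine 22 altered these genes. The summed level of all 78 genes in RxraWT was 3165, 3633 and 4298 CPM (lowest, median and highest of 6 libraries) at day 0, and in RxraSA it was 3342, 3881 and 4199 CPM. At day 2 these values were 6137, 7214 and 8487 CPM in RxraWT and 6253, 6903 and 8133 CPM in RxraSA, and at day 6 they were 4577, 5293 and 6680 CPM in RxraWT and 4598, 5233 and 6186 CPM in RxraSA. The genotypes overlapped on every day. With edgeR, 0 of 77 genes were called on days 0, 2 and 6, against 0% of all tested genes on each day, and 0 had an unadjusted p-value under 0.05. DESeq2 called 0 as well. The interactions of genotype and time also gave 0 calls, against 0% of all tested genes, for days 2 and 6 each, again with 0 unadjusted p-values under 0.05.

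The log2 fold changes of RxraSA against RxraWT lay between -0.19 and 0.19 at day 0 and between -0.13 and 0.11 at day 2. At day 6 they lay between -0.13 and 0.10, and the median standard error was 0.14 on each day. The smallest p-value at day 0 was that of Mrps30 (log2 fold change 0.12 ± 0.08), and at days 2 and 6 it was that of Mrps5, at -0.08 ± 0.08 and -0.10 ± 0.08. At day 6 Mrps5 had 44.3, 48.7 and 51.5 CPM (lowest, median and highest library) in RxraWT and 40.3, 44.5 and 50.1 in RxraSA, with overlap. The smallest p-values of the interactions were those of Mrpl52 for day 2 (-0.20 ± 0.19) and Mrps30 for day 6 (-0.13 ± 0.11), with adjusted p = 1 for both in edgeR. With same-numbered RxraWT and RxraSA libraries blocked as pairs inside each day, the median standard error was 0.0777, 0.0751 and 0.0765 and 0 genes were called, with 2, 0 and 1 unadjusted p-values under 0.05 at days 0, 2 and 6. A difference of a size within these errors was not detectable. Since p-values were adjusted over all tested genes, differences larger than 1 standard error may also have been missed.

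The clones were compared at each day over both genotypes. At day 0, 16 genes were called higher and 1 lower in clone 66 than in clone 48, against 12.6% and 11.1% of all tested genes. At day 2, 9 were called higher and 5 lower (14.5% and 15.5%), and at day 6, 9 higher and 5 lower (13.4% and 12.8%). These counts depended on the libraries used. At day 0, 10 were called higher without replicate 1 and 8 without replicate 2 of clone 48, and 0 were called lower without replicate 3 of clone 48 or replicate 1 of clone 66. At day 2, 3 and 2 were called higher without replicates 1 and 3 of clone 48 and 2 without replicate 2 of clone 66, and 1 was called lower without replicate 2 of clone 48 and 3 without replicate 2 or replicate 3 of clone 66. At day 6, 2 were called higher without replicate 2 or 3 of clone 48 or replicate 1 of clone 66, and the number called lower was 3 without replicate 1 or 2 of clone 48 or replicate 2 or 3 of clone 66, 10 without replicate 3 of clone 48 and 15 without replicate 1 of clone 66. Since same-numbered libraries of the genotypes deviated together, the counts of each such pair were also summed, which left 5 genes higher and 0 lower for day 0. For day 2 it left 1 higher and 2 lower, and for day 6 it left 1 higher and 3 lower.

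Mrpl38, a large subunit protein specific to mitochondria, differed most steadily. In clone 48 it had 22.4, 26.2 and 29.4 CPM (lowest, median and highest of 6 libraries) at day 0, while the corresponding values were 60.4, 67.8 and 75.7 at day 2 and then 45.8, 51.4 and 61.1 at day 6. In clone 66 the values were 36.2, 43.2 and 47.6, then 83.9, 94.5 and 99.3, and then 80.1, 86.8 and 91.3. The clones did not overlap on any day, and the log2 fold changes were 0.72 ± 0.09, 0.45 ± 0.09 and 0.69 ± 0.09 (adjusted p = 2.40e-07, 0.000162 and 4.30e-07). With the pairs summed, the adjusted p was 0.000443, 0.0114 and 0.000673.

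Mrpl3 was not called between the clones at day 0 (-0.07 ± 0.10) and was lower in clone 66 afterwards. It had 50.2, 52.7 and 58.4 CPM in clone 48 and 42.7, 51.0 and 56.6 CPM in clone 66 at day 0, and 101, 115 and 143 CPM against 71.2, 83.3 and 91.8 CPM at day 2. The clones overlapped at day 0 and not at day 2, and the log2 fold change was -0.53 ± 0.10 (adjusted p = 0.000147) at day 2 and -0.43 ± 0.10 (adjusted p = 0.00163) at day 6. Other genes named by the rule are given for the day on which they were named. Mrpl9 and Mrpl22 were higher in clone 66 at day 0 (0.61 ± 0.13 and 0.60 ± 0.12). Mrpl48 was lower at day 2 (-0.64 ± 0.15), and Mrps6 and Mrpl34 were lower at day 6 (-0.57 ± 0.14 and -0.65 ± 0.16). Mrpl9 was also called higher at days 2 and 6, but these calls were lost in 8 and 6 of the 16 other settings. Mrps6 was also called lower at day 0, a call lost in 3 of the 16. The day 2 difference of Mrpl48 was not called without replicate 2 of clone 48 (-0.50).

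**Figure D5:**
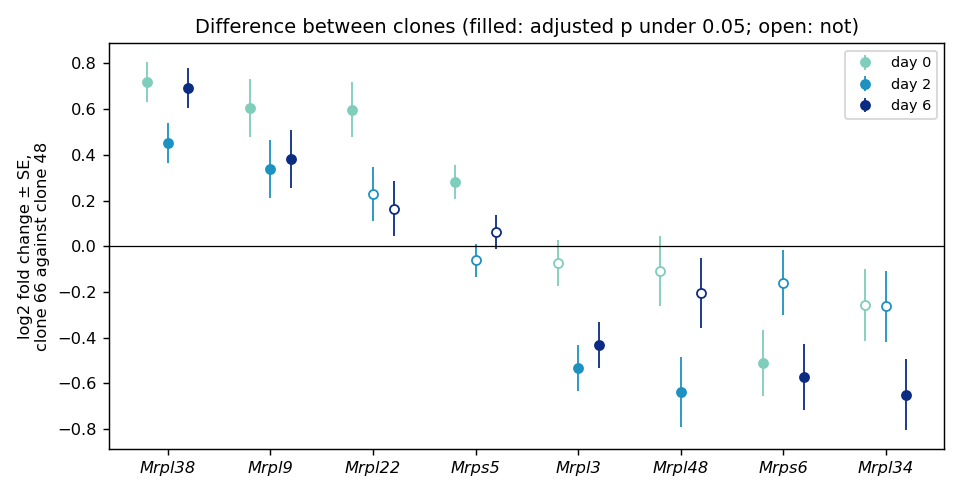
Log2 fold change of clone 66 against clone 48 with its standard error (y axis) for 8 genes (x axis) at days 0, 2 and 6, with filled points for an adjusted p-value under 0.05 and open points otherwise. Mrpl38 lies above 0 on all 3 days (0.72, 0.45 and 0.69), and Mrpl3 lies near 0 at day 0 and below 0 at days 2 and 6.

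The change with time was compared between clones. From day 0 to day 2, 2 genes, Mrps5 and Mrpl3, were called, both with a smaller increase in clone 66, against 6.84% of all tested genes called in either direction. For Mrps5 the difference in log2 fold change was -0.34 ± 0.10 (adjusted p = 0.0415), with 24.8, 28.1 and 29.8 CPM (lowest, median and highest library) in clone 48 and 31.1, 33.5 and 36.9 CPM in clone 66 at day 0, and 56.4, 61.5 and 70.2 against 54.9, 60.4 and 60.9 CPM at day 2. The clones did not overlap at day 0 and overlapped at day 2. For Mrpl3 the difference was -0.46 ± 0.14 (adjusted p = 0.0474). With a replicate block 8 genes were called, and with the counts of each pair summed 0 were called. No call of Mrps5 remained when any 1 replicate of a clone was left out. There were 0 calls without replicate 1 or 2 of clone 48 or replicate 2 or 3 of clone 66, the calls without replicate 3 of clone 48 were Mrpl3 and Mrps18b, and the 1 call without replicate 1 of clone 66 was Mrps18a. From day 0 to day 6, edgeR called 0 of 77, with 5 unadjusted p-values under 0.05, against 3.85% of all tested genes called, and DESeq2 called 0.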

How the data were processed

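RNA was sequenced from 36 libraries of differentiating brown pre-adipocyte lines. After rRNA depletion and stranded library preparation, the authors mapped the read pairs to GRCm38 with STAR 2.7.0d and counted read pairs on GENCODE M21 exons with featureCounts 1.6.2, without regard to strand and without pairs assigned to several genes or places. The deposited values are these raw counts, neither normalized nor filtered, and the authors' own model used edgeR 3.24.3. Counts of overlapping and antisense genes are therefore uncertain, and 10 of the 78 genes share over 20% of their exon bases with another gene.

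Groups were taken from the sample labels. The deposited design text calls the replicates technical and the paper independent, so p-values measure only the spread between these libraries, which may be technical. No pair of replicates was a duplicate (chi-square per degree of freedom 13.5 to 215). Same-numbered RxraWT and RxraSA libraries of a clone and day deviated together in all 18 pairs (correlation over 9381 genes 0.176 to 0.930, mean 0.710), so the numbers were taken to pair the libraries. The main fits had no term for these pairs and took paired libraries as separate. Their p-values and standard errors between days and between clones may therefore be too small. Those between genotypes may be too large, since the median standard error at day 0 was 0.14 in the main fit and 0.0777 with the pairs blocked inside each day.

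Genes were filtered with filterByExpr, scaled by TMM and fitted with the quasi-likelihood test of edgeR 4.0.16 in R 4.3.3, with terms for genotype by day and for clone, or, where clones were compared, for every combination of clone, genotype and day. P-values were adjusted over all 16723 genes. SE is that of the log2 fold change. In edgeR it was derived as the absolute log2 fold change divided by the square root of the test's F statistic. Total counts of 11351078 to 24349263 set the precision, and counting error limits genes with few counts. The fits were tested on simulated data. DESeq2 1.42.0, other scalings and filters, replicate blocks, each clone alone and omission of replicates were tried, and the sums of paired libraries and Lars2 without 1 library were added after the data were seen. The genes and lists were chosen with earlier results of these data known, and the named genes were the 5 largest and 5 smallest called changes per pair of days, the 3 highest and 3 lowest levels per kb, the 3 largest called differences between clones per day, up to 3 called interactions of clone and time, the smallest p-value per genotype contrast, 8 fixed genes and those failing the filter, with Mrps15, Mrps31 and Mrpl11 named after their values were seen. Drawing used Python with matplotlib 3.10.9.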

Additional observations from a re-analysis of the deposited data

Results flagged for a closer look

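For 2 genes the change from day 0 to day 2 differed between the clones by the interaction test of edgeR. The difference in log2 fold change, clone 66 minus clone 48, was -0.46 for Mrpl3 and -0.34 for Mrps5, and neither was called with the counts of paired libraries summed.

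In the 54 groups of 6 libraries that were examined for a library apart from the other 5 by Dixon's criterion, 2 were found, and chance alone gives about 1 in 20 groups. The share of counts on the genes reached 0.468% in the highest library of clone 48 at day 0, and the level of Mrpl34 reached 38.1 CPM in the highest library of the same clone and day.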

How the results depend on the processing

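The number of genes called higher at day 2 than at day 0 stayed within 1.5 times of 72 under every alternative tried, as did the 66 called higher at day 6 than at day 0 and the 51 called lower at day 6 than at day 2. With library size alone 3 genes, and with upper quartile scaling 2, were called lower at day 2 than at day 0. Library size alone also turned the direction of Mrpl14 at day 2 (-0.0021) and of Mrpl19 at day 6 against day 0 (-0.021). The 1 gene called lower at day 6 than at day 0 was 0 with RLE size factors, with no filter, without mitochondrial genes, with DESeq2, without the clone term, in clone 48 or clone 66 alone, with the 2 days alone and with paired libraries summed, and 0 to 1 without single replicates. From day 2 to day 6, 3 genes were called higher in clone 48 alone and 3 with paired libraries summed, against 6.

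For clone 66 against clone 48 at day 0, the 16 genes called higher became 10 with upper quartile scaling, 9 with no filter, 5 with paired libraries summed and 8 to 16 without single replicates, and the 1 lower became 0 with paired libraries summed and 0 to 1 without single replicates. At day 2 the 9 higher became 4 with library size alone, 4 with upper quartile scaling, 1 with paired libraries summed and 2 to 13 without single replicates, and the 5 lower became 2 with no filter, 2 with paired libraries summed and 1 to 7 without single replicates. At day 6 the 9 higher became 2 with library size alone, 2 with upper quartile scaling, 5 with no filter, 1 with paired libraries summed and 2 to 12 without single replicates, and the 5 lower became 8 with library size alone, 3 with paired libraries summed and 3 to 15 without single replicates. Summing leaves 3 samples per clone and day.

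For the clone by time difference at day 2, the 2 calls became 0 with RLE size factors, upper quartile scaling, no filter or paired libraries summed, 1 without mitochondrial genes, 1 without the library of clone 48, RxraSA, day 0, replicate 1, and 0 to 2 without single replicates. With the replicate block 8 genes were called. The block moved no other count by more than 1.5 times among those between days (73 higher at day 2 and 70 higher at day 6 than at day 0), between genotypes and for clone by time at day 6, and it was not run between clones within a day. Of 2610 recomputed values of the named genes, 2437 kept their side of the threshold, 145 lost a call and 26 gained one. A further 2 were called in the main or the other setting and turned direction. Changes of direction in values called in neither setting were not counted and lie within the 2437. The causes were not tested. Mrpl23, Mrps36 and Mrps34 had few counts (83 to 194, 82 to 235 and 29 to 324 per library), and the part of depth in their values was not tested. Processed pseudogenes also carry the name of Mrps36, and their part was not tested either.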
